A study of Homo sapiens with 6 samples.

Results

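The keratin family was read in SKOV3 cells, a human ovarian cancer line, after knockdown of EIF5A2, a factor of translation. Its members were chosen by symbol alone: every gene identifier of the count table that maps to a protein-coding gene named KRT with a number and an optional letter, which leaves out keratin-associated proteins and pseudogenes. This gave 55 keratin genes of 58825 identifiers, of which 29 encode type I and 26 encode type II keratins. The family itself was picked with the contrast of NC and si-EIF5A2 known, above all the large fall of KRT81, so what follows on that contrast describes these 6 libraries, and the counts of members called are read neither for nor against the family.

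RNA was sequenced in 3 libraries of cells given a negative control siRNA (NC) and 3 given a siRNA against EIF5A2 (si-EIF5A2), 48 h after transfection as the series states. All 6 come from 1 cell line and the knockdown rests on 1 siRNA; the labels name no genetic modification. Nothing in the labels says that replicates were separate cultures, so p-values measure only the spread between these libraries. Total counts ran from 46900204 to 74142267 per library. EIF5A2 fell from 29.1 ± 1.15 to 3.69 ± 0.817 CPM, the count scaled to the library total (SD, n = 3 per group), a log2 fold change of -2.98. The cells held PAX8, ERBB2 and the simple epithelial keratins of ovarian carcinoma, while MUC16 was at 0 in every library and CDH1, EPCAM and CLDN3 reached at most 1.68 CPM in any library. Mean CPM in NC and si-EIF5A2 was 3.80 and 4.46 for SOX17, 2.36 and 3.05 for WT1, and 0.666 and 0.652 for MSLN. CLDN4 was called lower by edgeR, from 0.999 ± 0.198 to 0.233 ± 0.148 CPM (log2 fold change -2.09). That call was lost with a replicate block, without NC replicate 1 or 2, and without si-EIF5A2 replicate 3. In the immune list 6 of 10 genes were at 0 and only CD68 was tested. The summed level of that list was 40.8 to 57.4 CPM across NC libraries and 28.97 to 55.6 CPM across knockdown libraries. The list of fibroblast and endothelial genes summed to 3.11 to 3.78 CPM across NC libraries and 1.02 to 4.46 CPM across knockdown libraries; of its 5 tested genes only PDGFRB was called by edgeR, lower, at no more than 52 counts in any library, and it was not called when NC replicate 2 was left out (log2 fold change -4.18, adjusted p = 0.0789), nor without NC replicate 3 or si-EIF5A2 replicate 1 or 2. PDGFRB held 0, 0 and 4 counts in si-EIF5A2 and passed the filter on low counts only through NC. PECAM1, an endothelial adhesion molecule, had 149, 139 and 76 counts in NC against 0, 15 and 32 and was not called by edgeR (log2 fold change -2.56, adjusted p = 0.0941). It was called lower by DESeq2 (adjusted p = 0.00829), by edgeR on counts divided by their step (adjusted p = 0.0129) and by edgeR without si-EIF5A2 replicate 1 (adjusted p = 0.0181). The part of such cells in the keratin values was not tested. In bulk RNA, fewer cells making a keratin and less of its RNA per cell cannot be told apart.

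Keratins are the intermediate filaments of epithelial cells. Each filament is built from paired chains, an acidic type I chain with a basic type II chain, so that a cell needs both types. KRT8 with KRT18 is the founding pair of simple epithelia, joined there by KRT7 and KRT19; stratified epithelia change to KRT5 with KRT14 in the basal layer and to KRT1 with KRT10 above it; and a further set of type I and type II keratins hardens the hair shaft. Ovarian carcinomas are known for KRT7, KRT8 and KRT18. The genes stand in clusters, and the files' identifiers placed them on GRCh38 (GENCODE release 29) as follows. All 26 type II genes and KRT18 lie within 784 kb of chromosome 12 (chr12:52168996-52952901), and the other 28 type I genes lie within 970 kb of chromosome 17 (chr17:40654665-41624842).

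One pair of neighbours shares much of its sequence. KRT81 and KRT86, type II keratins of the hair cortex, lie on opposite strands, KRT81 inside the annotated span of KRT86, and their coding sequences were 94.2% identical over the aligned bases. Of all windows of 150 bases in the KRT81 transcript, 456 of 1780 (25.6%) occurred letter for letter in KRT86, and the same 456 made up 22.1% of the windows of KRT86. Among the longest coding transcripts of the other tested keratins, none had such a window on the same strand in a transcript of another gene. Fragments whose 2 mates both fall in shared windows cannot be assigned to one of the pair, so the values of KRT81 and KRT86 are uncertain to that extent. KRT83, the third close copy, was 93.3% identical to KRT81 and 91.4% to KRT86, and shared no window of 150 bases on the same strand with another gene.

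Of the 55 keratins, 35 had 0 counts in all 6 libraries, 20 had counts, and 12 passed the filter on low counts and were tested. A value of 0 leaves room for up to 3 fragments, a level of 0.156 to 0.247 CPM depending on the library, and this covers counting error only. Of the 6 simple epithelial keratins, 4 were tested. Only 3 of 14 suprabasal, mucosal and corneal keratins, 3 of 17 hair keratins and 2 of 8 basal and stress-associated keratins passed, and all 9 keratins of the inner root sheath and companion layer were at 0. The 8 keratins with counts that were not tested held few. KRT78 had NC counts of 8, 8 and 37 and knockdown counts of 0, 0 and 12, and KRT222 had 0, 11 and 8 in NC and 0 in each si-EIF5A2 library. KRT83 had 12 counts in 1 NC library, KRT20 8 in 1 NC library, KRT13 8 in 1 NC library and KRT12 4 in 1 NC library, while KRT2 had 4 in 2 si-EIF5A2 libraries and KRT3 4 in 1. These values lie near the floor of about 11.6 counts for 3 fragments, except for the 37 counts of KRT78, and no difference was detectable in them at this depth. The basal pair KRT5 and KRT14 and the suprabasal KRT1 were at 0 throughout.

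Among the 12 tested keratins, 7 passed both limits for a call, an adjusted p under 0.05 with a fold change above 1.5, in edgeR's quasi-likelihood fit of all 16208 genes. Over all genes tested 24.6% were called, 13.6% lower and 11.1% higher after knockdown. The 5 keratins called lower, KRT81, KRT80, KRT79, KRT7 and KRT8, are all type II, and the 2 called higher, KRT34 and KRT15, are both type I. The groups did not overlap in 10 of the 12, or in 9 of 11 without KRT86, beside 51.2% of all genes tested; nothing is read from this count. The median log2 fold change was -2.50 over the 6 tested type II keratins and 0.62 over the 6 tested type I keratins, beside -0.010 over all genes tested. KRT86 cleared the filter's minimum in 3 NC libraries and 1 knockdown library, and without KRT86 the type II median was -1.91. The adjusted p of the called keratins, from the same edgeR fit, ran from 8.12e-06 for KRT81 to 0.00623 for KRT79.

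**Figure D1:**
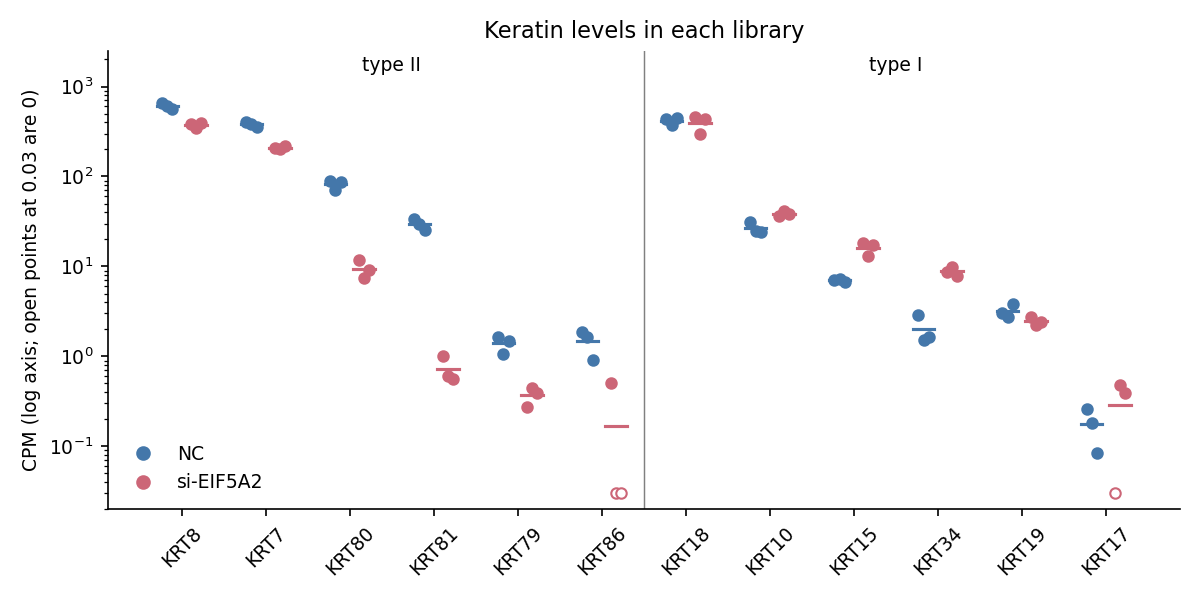
Level of each tested keratin in each library in CPM on a log axis, with lines at the group means of 3 libraries (blue NC, red si-EIF5A2); type II keratins stand on the left and type I on the right, and open points at the foot are libraries at 0. All 6 type II keratins were lower in every si-EIF5A2 library than in any NC library, whereas the libraries overlapped for KRT18 and KRT17. KRT86 cleared the filter's minimum in 3 NC libraries and 1 knockdown library. The groups did not overlap in 51.2% of all genes tested, and nothing is read from this count.

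KRT8 and KRT7 are the type II keratins that simple epithelia make in bulk, and both fell. KRT8 (ENSG00000170421) stood at 659, 604 and 561 CPM in the control libraries and at 383, 349 and 398 CPM after knockdown. Each knockdown library was below each control library. The log2 fold change was -0.69 (SE 0.086), which left 61.9% of the NC mean. KRT7 (ENSG00000135480), a marker of glandular epithelium, went from 407, 385 and 355 CPM to 207, 201 and 218 CPM. The 3 si-EIF5A2 values lay close together and well under the lowest NC value, with a log2 fold change of -0.87 (SE 0.077). At the limit named in the study's methods, an unadjusted p under 0.05 with a fold over 2, neither KRT8 nor KRT7 was called, since their folds were 1.61 and 1.83 downward. Exons of KRT7 share 282 bases with KRT7-AS on the other strand.

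KRT18 (ENSG00000111057), the type I partner of KRT8, was not called. Control libraries held 435, 376 and 443 CPM and knockdown libraries 457, 297 and 435 CPM. The groups overlapped, with the second knockdown library lowest and the first highest of all 6. The log2 fold change was -0.078 (SE 0.17, edgeR adjusted p = 0.758), and it was 0.093 without the second knockdown library. The ends of KRT8 and KRT18 overlap by 525 exon bases on opposite strands, 16.3% of the exon length of KRT18, and strandedness was not given in the sources used here. KRT19 (ENSG00000171345), the type I keratin of ductal epithelium, was at 3.07, 2.74 and 3.85 CPM without and 2.74, 2.24 and 2.40 CPM with the knockdown. The highest knockdown value all but equalled the lowest control value, and the log2 fold change of -0.39 (SE 0.22, edgeR adjusted p = 0.211) was not called. KRT20, the intestinal member of the simple group, had only the 8 counts given above.

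KRT80 (ENSG00000167767), a type II keratin of differentiating epithelia, also fell. It went from 89.3, 70.1 and 87.2 CPM to 11.7, 7.45 and 9.15 CPM. The lowest control library was several times the highest knockdown library. The log2 fold change was -3.12 (SE 0.19), a fold of 8.72 downward, and 11.5% of the NC mean was left. It stood 148th from the lowest log2 fold change of all genes tested. KRT79 (ENSG00000185640), a keratin of the hair canal and sebaceous duct, was low throughout, at 121, 76 and 69 counts in NC and 14, 23 and 19 counts in si-EIF5A2. Groups did not overlap, and the log2 fold change was -1.91 (SE 0.39), but the knockdown values rest on few fragments, since each fragment was worth about 3.86 deposited counts.

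KRT81 (ENSG00000205426) was among the deepest falls of the whole table, 36th from the lowest log2 fold change. Its levels were 34.0, 29.3 and 25.1 CPM in the control libraries and 1.02, 0.613 and 0.563 CPM in the knockdown libraries. In deposited counts this was 2481, 2075 and 1181 against 52, 32 and 27, so that the knockdown libraries held the transcript above the floor but at 2.48% of the NC mean. The log2 fold change was -5.33 (SE 0.26), a fold of 40.1 downward. Its near copy KRT86 (ENSG00000170442) had 135, 116 and 43 counts in NC and 26, 0 and 0 in si-EIF5A2, and its log2 fold change of -3.09 (SE 1.39, edgeR adjusted p = 0.137) was not called. Without si-EIF5A2 replicate 1 both remaining knockdown libraries were at 0 and KRT86 was called (adjusted p = 0.00165), at a fitted -9.42 that depends on the prior count and is no bound. With counts divided by their step it was called at -3.01 (adjusted p = 0.0291). In NC, KRT86 stood at 0.915 to 1.85 CPM, far under the 25.1 to 34.0 CPM of KRT81. Both were lower in every knockdown library than in any control library.

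A pair of type I keratins moved the other way. KRT34 (ENSG00000131737), a type I keratin of the hair cortex, rose from 2.88, 1.54 and 1.66 CPM to 8.66, 9.89 and 7.86 CPM. Its groups were clearly apart, although the first control library was highest of its group. The log2 fold change was 2.11 (SE 0.27), a fold of 4.33. KRT15 (ENSG00000171346), known from basal cells and the stem cell niche of the hair follicle, rose from 7.13, 7.17 and 6.78 CPM to 18.0, 13.2 and 17.4 CPM. The controls were nearly equal and the log2 fold change was 1.20 (SE 0.15). The hair keratins tested therefore held 1 gene called lower, KRT81, and 1 called higher, KRT34.

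KRT10 (ENSG00000186395), the type I keratin of suprabasal epidermis, stood at 31.3, 24.6 and 24.0 CPM in the controls and at 36.7, 41.0 and 38.6 CPM after knockdown. All knockdown libraries were above all controls, and edgeR gave a log2 fold change of 0.54 (SE 0.12) with an adjusted p = 0.0101. Its fold of 1.45 was just under the limit of 1.5, so it was not called; KRT8, at a fold of 1.61 downward, was the called member closest to that limit. Without the first control library the value of KRT10 was 0.67 and it was called. KRT17 (ENSG00000128422), a keratin of stressed and appendage epithelium, had 19, 13 and 4 counts in NC and 0, 25 and 19 counts in si-EIF5A2. Groups overlapped and most values were near the floor, so no difference was detectable at this depth (log2 fold change 0.70, SE 1.16).

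**Figure D2:**
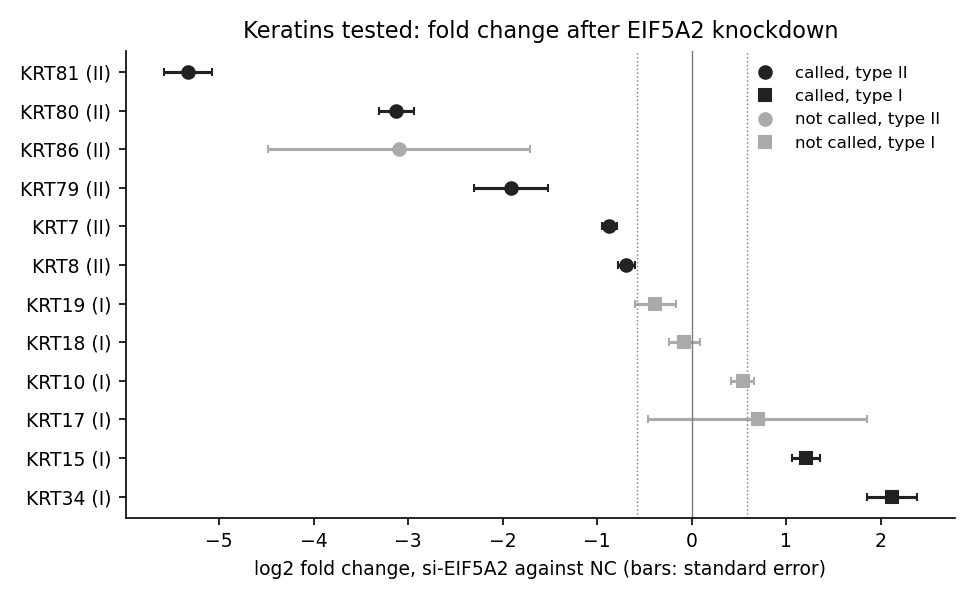
Log2 fold change of si-EIF5A2 against NC for the 12 tested keratins, with bars of 1 standard error of the edgeR fit of 6 libraries; circles are type II, squares type I, black points called, and dotted lines mark a fold of 1.5. Type II keratins run from -5.33 for KRT81 to -0.69 for KRT8 and type I keratins from -0.39 for KRT19 to 2.11 for KRT34.

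The levels of different genes were compared per length, as CPM per kb of the union of a gene's exons. On that scale KRT18 led in NC with 130 ± 11.4 (SD, n = 3), followed by KRT7 with 93.4 ± 6.38 and KRT8 with 88.4 ± 7.13, and KRT7 and KRT8 differed by less than their spread. KRT80 stood at 18.9 ± 2.42, KRT81 at 15.3 ± 2.30 and KRT10 at 12.4 ± 1.89, and the spreads of neighbours in that order touched. All other keratins were under 1.5. In si-EIF5A2 the order was KRT18 with 123 ± 27.1, KRT8 with 54.7 ± 3.60, KRT7 with 51.0 ± 2.14, KRT10 with 18.1 ± 0.989, KRT34 with 5.03 ± 0.582, KRT15 with 2.29 ± 0.368 and KRT80 with 2.17 ± 0.489. Neither KRT8 and KRT7 nor KRT15 and KRT80 differed beyond their spread there. KRT81 dropped from the fifth place to 0.379 ± 0.129. The order of the top genes depended on the length used: with the longest coding transcript, which is 1.687 kb for KRT8 against 6.881 kb for its union of exons, KRT8 led in NC with 361 and KRT18 followed with 268.

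Summed per kb of exon union, the type II keratins went from 217 ± 16.4 CPM per kb in NC to 109 ± 5.94 in si-EIF5A2, which is 49.99% of NC. With the longest coding transcript as length 56.0% of NC was left, and in CPM without a length 54.0%. By exon union the type I keratins were at 146 ± 12.6 and 150 ± 26.0, with overlapping groups. The ratio of type II to type I was 1.52, 1.63 and 1.33 in NC, and after knockdown it was 0.654, 0.852 and 0.706. Every control library thus had more type II than type I transcript per length, and every knockdown library had less. With the longest coding transcript as length, the ratio was 2.17 ± 0.243 in NC and 1.25 ± 0.203 in si-EIF5A2, so type II led in both groups and only the fall of the ratio was shared. The ratio of KRT8 to KRT18 went from 0.684 ± 0.0819 to 0.457 ± 0.0837, or from 1.35 to 0.904 by coding transcript. The second knockdown library had the lowest KRT18 and the highest ratio of its group. These sums are dominated by KRT8, KRT18 and KRT7, and they carry no test because the family was chosen on this contrast.

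**Figure D3:**
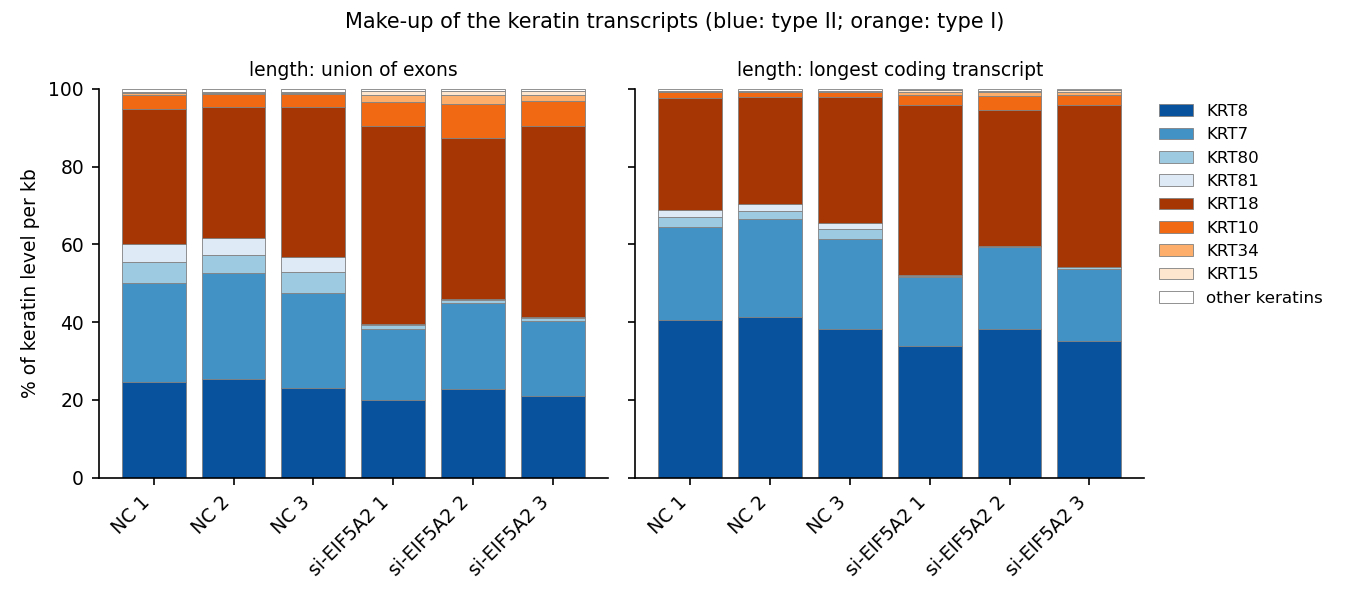
Share of each keratin in the summed keratin level per kb of each library, in percent, with length taken as the union of exons (left) or the longest coding transcript (right); blue shades are type II and orange shades type I. With the union of exons, KRT18 takes 35.8% on average in NC and 47.3% in si-EIF5A2, and KRT80 and KRT81 shrink from 5.19% and 4.20% to 0.834% and 0.146%.

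In total the keratins held 1563 ± 95.7 CPM without and 1059 ± 118 CPM with the knockdown, or 0.156% and 0.106% of the deposited counts. KRT7, KRT8, KRT18 and KRT19 made up 86.2% ± 0.773 of the level per kb of exon union in NC and 88.9% ± 1.70 in si-EIF5A2, or 94.1% and 95.2% by coding transcript. KRT10 went from 3.41% ± 0.312 to 7.10% ± 1.31 and KRT34 from 0.314% ± 0.0938 to 1.99% ± 0.489 of the sum by exon union. By coding transcript KRT10 went from 1.39% to 2.95% and KRT34 from 0.127% to 0.816%. The sum itself was lower after knockdown, so a share can rise without a rise of the gene's own level. KRT10 itself rose by a fold of 1.45 and was not called. Of the 8 pairs of partners that were listed, both chains were tested in 2. KRT8 with KRT18 had log2 fold changes of -0.69 and -0.078, and KRT7 with KRT19 had -0.87 and -0.39. The type II partners of KRT10 and KRT17 in the list, KRT1 and KRT6B, were at 0, and KRT5 with KRT14 and KRT6A with KRT16 were at 0 on both sides.

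By position, 4 of the 6 tested type II keratins stand next to each other at one end of the cluster of chromosome 12. KRT80 (chr12:52168996-52192000, minus strand), KRT7 (chr12:52232520-52252186, plus strand), KRT86 (chr12:52249300-52309163, plus strand) and KRT81 (chr12:52285913-52291534, minus strand) start in that order within 117 kb, with log2 fold changes of -3.12, -0.87, -3.09 and -5.33. KRT86 was not called (SE 1.39, edgeR adjusted p = 0.137) and held 26, 0 and 0 counts in si-EIF5A2. It cleared the filter's minimum in 3 NC libraries and 1 knockdown library, and 22.1% of its windows occur in KRT81. KRT79 (chr12:52821410-52834295) and KRT8 (chr12:52897187-52949954), both on the minus strand, start 652 and 728 kb from the start of KRT80, and KRT18, beside KRT8, is the only type I gene there. The tested genes of the chromosome 17 cluster were KRT10 near one end and KRT34, KRT15, KRT19 and KRT17 near the other. KRT34 spans chr17:41377650-41382403. KRT15 (chr17:41513743-41522529) and KRT19 (chr17:41523617-41528308) are direct neighbours and had log2 fold changes of 1.20 and -0.39. Among other genes within 500 kb of the clusters, 5 were called lower and 6 higher of 27 tested on chromosome 12, and 5 lower and 2 higher of 31 tested on chromosome 17. The share called over all genes tested was 24.6%, with 13.6% lower and 11.1% higher, and nothing is read from these counts.

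**Figure D4:**
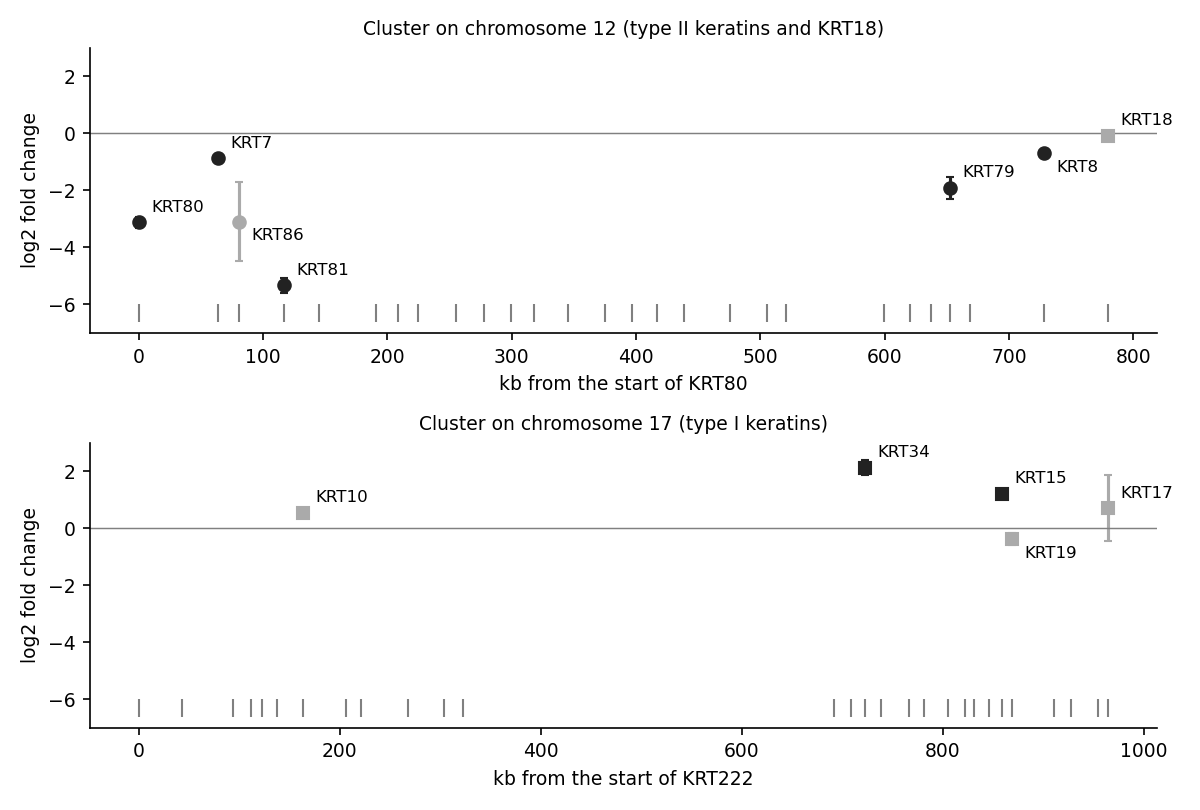
Log2 fold change of each tested keratin by the distance of its start from the first keratin of its cluster in kb, for chromosome 12 (top) and chromosome 17 (bottom), with bars of 1 standard error; circles are type II, squares type I, black points called, and ticks mark all keratin genes. KRT80, KRT7, KRT86 and KRT81 start within 117 kb at the left end of the upper panel and all lie below 0. KRT86 was not called, cleared the filter's minimum in 3 NC libraries and 1 knockdown library, and shares sequence with KRT81.

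RefSeq promoters (GRCh38.p14, 250 bases before to 50 after the start) were at hand for 34 of the 55 keratins, 4 of them tested: KRT8, KRT79, KRT10 and KRT34. Each was searched on both strands for TATAAA, the TATA box, for TGANTCA, the AP-1 motif, and for GGGCGG, a GC box. Only the first listed entry of each gene was counted, and a motif counted at any place in the window. So counted, TATAAA occurred in 20 of the 34 (58.8%) and in 11.95% of 27305 promoters of the same length. In KRT84 it lay 228 bases before the start, and a later entry of KRT40 that was not counted held it 29 bases before. TGANTCA occurred in none of the 34 and in 7.76% of all promoters, and GGGCGG in 6 (17.6%) and in 44.6%. Of the tested genes, KRT10 and KRT34 held TATAAA and had positive log2 fold changes. The windows of KRT79 and KRT8 held no exact match to the 3 motifs, and the log2 fold changes of these genes were negative. Only exact matches counted, and the KRT79 window holds gataaa, which differs from TATAAA in its first base. With 4 genes this is a description only. The entry of KRT8 lies inside the gene's annotated span and stands for one of several starts, so it is not shown. The other 3 are printed on the minus strand with TATAAA in capitals, which begins 29 bases before the start of KRT10 and 31 bases before that of KRT34. They span chr17:40822565-40822864 for KRT10, chr17:41382257-41382556 for KRT34 and chr12:52834262-52834561 for KRT79.
KRT10: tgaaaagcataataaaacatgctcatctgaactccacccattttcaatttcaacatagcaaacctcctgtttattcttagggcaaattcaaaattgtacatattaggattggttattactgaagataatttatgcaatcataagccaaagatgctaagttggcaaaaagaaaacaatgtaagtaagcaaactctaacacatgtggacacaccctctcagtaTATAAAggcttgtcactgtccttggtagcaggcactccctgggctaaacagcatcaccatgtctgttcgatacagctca
KRT34: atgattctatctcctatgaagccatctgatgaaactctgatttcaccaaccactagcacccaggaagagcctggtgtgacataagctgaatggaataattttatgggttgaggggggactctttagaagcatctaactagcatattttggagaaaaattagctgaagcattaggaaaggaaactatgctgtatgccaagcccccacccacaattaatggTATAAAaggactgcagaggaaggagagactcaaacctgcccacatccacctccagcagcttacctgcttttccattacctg
KRT79: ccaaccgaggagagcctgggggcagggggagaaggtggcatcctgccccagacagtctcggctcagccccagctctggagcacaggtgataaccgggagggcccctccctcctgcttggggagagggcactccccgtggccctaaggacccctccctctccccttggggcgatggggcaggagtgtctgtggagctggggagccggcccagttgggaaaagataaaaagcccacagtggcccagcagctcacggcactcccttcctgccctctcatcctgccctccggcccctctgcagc

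Keratin filaments end on desmosomes and hemidesmosomes and are tied to other filaments by plakins. Of 22 genes of desmosomes and keratin linkers, 17 were tested, 3 called lower and 5 higher, with a median log2 fold change of -0.36 beside -0.010 over all genes. The share called over all genes tested was 24.6%, with 13.6% lower and 11.1% higher. Nothing is read from the counts of this list or of those below. PERP, a membrane protein of desmosomes, rose from 52.9 ± 2.16 to 189 ± 11.9 CPM (SD, n = 3 per group). DSP, desmoplakin, which anchors keratin at the desmosome, rose from 24.4 ± 2.17 to 41.6 ± 6.22 CPM, and NDEL1, a dynein regulator, from 28.4 ± 1.04 to 57.7 ± 5.10 CPM. DSC2 and DSC3, desmosomal cadherins, were the other 2 called higher, DSC3 on at most 97 counts and not in 5 of the 6 fits that left out a library (log2 fold change 1.01 to 1.43). PKP3, plakophilin 3 of the desmosomal plaque, fell from 14.7 ± 2.80 to 5.46 ± 1.65 CPM, and TCHP, the keratin-binding trichoplein, from 19.3 ± 4.20 to 8.93 ± 3.16 CPM, though TCHP was not called without NC replicate 1 (log2 fold change -1.02, adjusted p = 0.0624) or 2 or without si-EIF5A2 replicate 2. The third gene called lower was PPL, periplakin, a plakin that binds keratin, with 251, 240 and 183 counts in NC and 2, 0 and 8 in si-EIF5A2. Its knockdown counts lie under the floor of about 11.6 counts, and PPL passed the filter on low counts only through NC. PPL, DSC2 and DSC3 lie under 10 CPM and were named after their values were seen. PLEC, plectin, which links keratin to other filaments, stood at 1236 ± 122 and 1664 ± 53.8 CPM; its groups did not overlap, but its log2 fold change of 0.43 (SE 0.085) was under the limit. DSG2, a desmosomal cadherin, had 81.3 ± 3.94 and 107 ± 5.32 CPM and was not called either.

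Of the 6 hemidesmosome genes, all tested, ITGA6, the integrin subunit that binds laminin, rose from 141 ± 10.7 to 249 ± 9.57 CPM, and COL17A1, a transmembrane collagen, fell from 22.2 ± 2.10 to 9.62 ± 0.984 CPM. None of the 6 tested genes among 13 other cytoplasmic intermediate filaments was called by edgeR, with 2 at an unadjusted p under 0.05, nor by DESeq2. GFAP, the filament of astrocytes, was called lower without si-EIF5A2 replicate 2 (-3.08) and BFSP1, a lens filament, without si-EIF5A2 replicate 3 (-1.28). GFAP held 38, 65 and 31 counts in NC and 4, 19 and 4 in si-EIF5A2. The 4 counts of each knockdown library left in that GFAP fit lie under the floor given above. VIM, vimentin, the filament of mesenchymal cells, stood at 13205 ± 538 and 12069 ± 284 CPM, with a log2 fold change of -0.13 (SE 0.059).

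Genes of keratinising tissue were few. Of 26 genes of cornification and keratinocytes, 15 were at 0 and 4 were tested, and SBSN, suprabasin, was the 1 called, lower, at 4.65 ± 0.262 and 2.41 ± 0.536 CPM. The list summed to 7.43 to 7.76 CPM across NC libraries and 4.11 to 4.58 CPM across knockdown libraries. Of 11 hair follicle genes, 5 were tested and 2 called lower, beside 13.6% called lower over all genes tested. S100A3, a calcium-binding protein of the hair cuticle, fell from 20.4 ± 3.37 to 8.28 ± 0.913 CPM, and LEF1, a Wnt pathway factor active in hair keratin genes, from 3.397 ± 1.03 to 1.496 ± 0.433 CPM, with LEF1 not called without NC replicate 3 (-0.92) or without si-EIF5A2 replicate 2 (-0.96). Among 17 transcription factors of epithelia, 9 were tested, 2 called lower and 2 higher, beside 13.6% lower and 11.1% higher over all genes tested. KLF4, a factor of epithelial differentiation, fell from 78.3 ± 6.14 to 20.5 ± 1.502 CPM and PAX8, a lineage factor of the Müllerian tract, from 106 ± 13.8 to 61.0 ± 4.73 CPM. KLF5, a factor of proliferating epithelium, rose from 8.60 ± 0.746 to 23.9 ± 3.14 CPM and TFAP2C, an AP-2 factor, from 8.29 ± 0.383 to 16.1 ± 0.615 CPM.

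**Figure D5:**
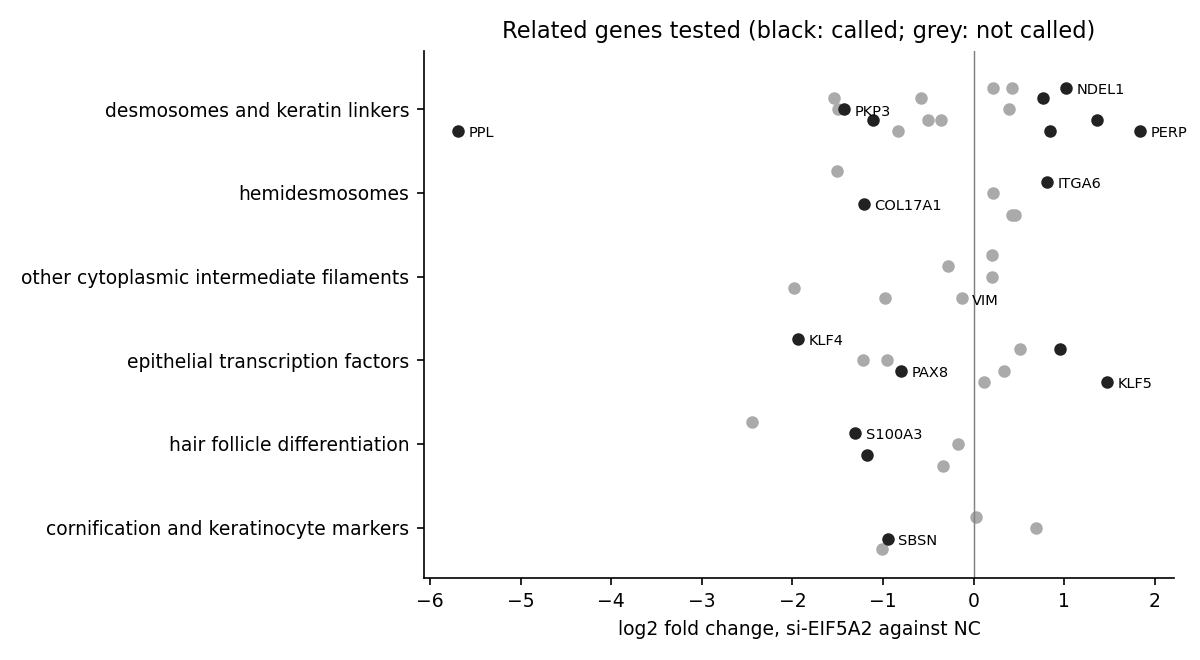
Log2 fold change of si-EIF5A2 against NC for the tested genes of 6 related lists, 1 point per gene, with vertical offsets only to separate the points; black points were called. Desmosome genes lie on both sides of 0, with PERP and NDEL1 among those called higher and PPL and PKP3 among those called lower. PPL passed the filter on low counts only through NC. No gene of the other intermediate filaments was called.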

How the data were processed

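The authors sequenced paired-end mRNA libraries and estimated expression with StringTie and ballgown; they deposited estimated counts per gene as whole numbers, not normalized. The aligner and build are not settled by the sources used here: the submitters' processing notes list Bowtie 0.12.2 and the mouse builds mm8 and mm9, while the identifiers are human. StringTie divides fragments between overlapping transcripts, and low values stepped by about 3.86 counts per fragment. Of 58825 identifiers, 58552 were in GENCODE release 29 (GRCh38), which gave positions, lengths and transcripts.

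All 6 libraries were fitted with edgeR 4.0.16 (R 4.3.3): filterByExpr, TMM, robust quasi-likelihood fits with the group as the only term, and Benjamini-Hochberg adjustment over 16208 genes. Calls needed an adjusted p under 0.05 together with a fold change above 1.5. CPM used TMM library sizes. Coding sequences were aligned globally with Biopython, and windows of the longest coding transcripts were searched in all GENCODE transcripts on the same strand.

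The members, the lists of related genes and the tests were chosen with earlier results of these data known. Named are all tested keratins, all keratins with counts, and in each list the 4 most abundant genes and called genes of at least 10 CPM. Not all genes under this rule are reported by name; the markers of the label check were also named, and GFAP, BFSP1, DSC2, DSC3 and PPL were named after their values were seen. Alternatives were DESeq2 1.42.0, other normalizations, filters, thresholds and lengths, a replicate block, summed identifiers, counts divided by their step, and leaving out each library.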

Additional observations from a re-analysis of the deposited data

How the results depend on the processing

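Under DESeq2, 3 other normalizations, both other filters, counts divided by their step, summed identifiers, no fold limit and each library left out, 5 to 6 keratins were called lower and 2 to 3 higher, against 5 and 2. By the threshold of the methods, an unadjusted p under 0.05 and a fold over 2, 3 were lower (KRT81, KRT80 and KRT79, without KRT8 and KRT7) and KRT34 and KRT15 were the 2 higher. With the longest coding transcript as length, the ratio of type II to type I was 2.17 in NC and 1.25 in si-EIF5A2. KRT18 ran from -0.20 to 0.093 with each library left out and reversed without si-EIF5A2 replicate 2. KRT86 was called without si-EIF5A2 replicate 1, where the other 2 knockdown libraries were at 0 (-9.42), and with counts divided by their step (-3.01), and KRT10 without NC replicate 1. The cause was not tested.

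Deviations from the group means of samples with the same number correlated at -0.0244, 0.00522 and -0.00269, within the -0.0412 to 0.0436 of samples with different numbers. No effect shared by number was seen, but this cannot tell whether samples were handled in pairs. With a replicate block 3731 genes were called in place of 3992, and no keratin call changed, though KRT86 moved to -4.43. Depth limits KRT17, KRT79 and KRT86, whose libraries held at most 135 counts.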

Other observations

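Of 112 keratin-associated protein genes, which encode the matrix of hair around the keratin filaments, 2 were tested. KRTAP2-3 rose from 1.59 ± 0.473 to 4.12 ± 1.60 CPM (SD, n = 3 per group; log2 fold change 1.36, SE 0.34, edgeR adjusted p = 0.0148), with 156, 97 and 60 counts in NC and 158, 172 and 286 in si-EIF5A2. KRTAP2-4, its neighbour in the same family, held 10, 2 and 10 counts against 25, 28 and 13 and was not called. Both lie in the type I cluster of chromosome 17, as KRT34 does.

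The pseudogenes named after KRT8, taken by symbol, numbered 51, of which 22 had counts. Together they held 1179, 1210 and 790 counts in NC and 924, 910 and 954 in si-EIF5A2, 2.45% to 4.999% of the counts of KRT8. That share was higher in every knockdown library than in any NC library. KRT8, its denominator, was called lower, at 61.9% of the NC mean, so the share alone does not show a change of the pseudogenes. Their summed counts were not tested. Those of KRT18 numbered 67, of which 21 had counts, and held 0.184% to 0.401% of the counts of KRT18.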
